A study of Mus musculus with 5 samples.

Results

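Binding of macroH2A1.2-GFP was described at the chemokine and interleukin genes of the mouse autosomes, 68 of 20807 autosomal protein-coding genes in GENCODE M21 (mm10). These genes were chosen by symbol alone, as Ccl or Cxcl followed by a digit, or Il followed by digits and at most one further letter, and receptors were left out. The 68 genes were 23 CC chemokines, 12 CXC chemokines and 33 interleukins. For each gene a window was taken that held the gene body and 10 kb on each side, and an enriched region was counted at a gene when it overlapped this window by at least 1 bp.

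The data are ChIP-Seq of 3T3-L1 cells, a mouse fibroblast line that can be turned into fat cells in culture. All samples came from stable lines in which a lentivirus expressed the histone variant macroH2A1.2 fused to GFP, so pre-adipocytes and mature adipocytes both carried the tagged protein, and chromatin was digested with micrococcal nuclease and precipitated with an anti-GFP antibody (ab290). Pre-adipocytes (2 samples) were taken before differentiation, and mature adipocytes (2 samples) after induction with IBMX, dexamethasone and insulin for 60 h followed by medium without IBMX and dexamethasone, and both were set against 1 library made with no antibody. Conditions follow the sample titles. In their description fields, however, the mature adipocyte samples are given the undifferentiated state and the control library is given the anti-GFP antibody, and the methods paragraph on ChIP names mouse adipose tissue where the labels name 3T3-L1. The binding is that of a tagged protein from a lentivirus in 1 cell line. The samples of a condition are described as biological duplicates, but how their cultures were kept apart is not given in the sources used here, so p-values measure only the spread between these samples, and with 2 samples against 2 an exact permutation test cannot give a two-sided p under 0.333. Region tables hold no expression, so the differentiation state was not checked against marker genes. In bulk chromatin, more cells bound and more binding per cell cannot be told apart.

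Chemokines are small secreted proteins that draw leukocytes along a gradient, and the CC and CXC families are named for the spacing of their first cysteines. Many of their genes lie side by side in clusters that arose by duplication. Interleukins are cytokines that pass signals between immune cells and tissue cells. In fat tissue, Ccl2, Il6, Il1b and other members of both groups are known as signals of obesity-linked inflammation. MacroH2A1.2 is an H2A variant with a large macro domain, which is found over wide stretches of chromatin.

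The authors called between 36468 and 61196 enriched regions per sample with SICER, at an FDR of at most 0.001. Pre-adipocyte replicate 2 stood apart in depth. Its library was 0.549 times the size of the control library, against 1.2 to 1.23 for the other 3 libraries, its regions held 2833105 ChIP reads in all, against 9876187 to 11592708, and its regions were shorter, with a median of 3000 bp against 3400 to 5800 bp. Comparisons between conditions are therefore given with and without it.

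A macroH2A1.2-GFP region lay within reach of a larger share of chemokine and interleukin genes than of autosomal genes as a whole, in each of the 4 samples. A region lay in the window of 37 and 34 of the 68 genes in pre-adipocyte replicates 1 and 2, and of 43 and 42 in mature adipocyte replicates 1 and 2. These counts are 54.4%, 50%, 63.2% and 61.8% of the members, against 35.0%, 30.3%, 41.4% and 41.6% of all autosomal coding genes. Member genes were shorter than genes in general, with a median body of 5169.5 bp against 17629 bp. Among genes with bodies of up to 15 kb the distance was wider, with 50.9%, 45.6%, 59.6% and 56.1% of 57 members against 27.7%, 22.3%, 32.3% and 32.7% of 9493 genes. Regions also took up more of the members' windows, 25.2%, 11.7%, 24.6% and 25.3% of all bases in the 4 samples, where the windows of all genes were covered to 8.08%, 3.74%, 8.35% and 8.07%.

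A region was present in all 4 samples at 28 members, or 41.2%, against a background of 21.1% of all autosomal coding genes. No region was found in any sample at 18 members, or 26.5%, against 46.3% of all genes. The remaining 22 members had a region in 1 to 3 samples. Members in a cluster often shared regions, and 8 to 19 regions per sample lay in the windows of more than 1 member, so members are not independent of each other and these shares carry no test.

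**Figure D1:**
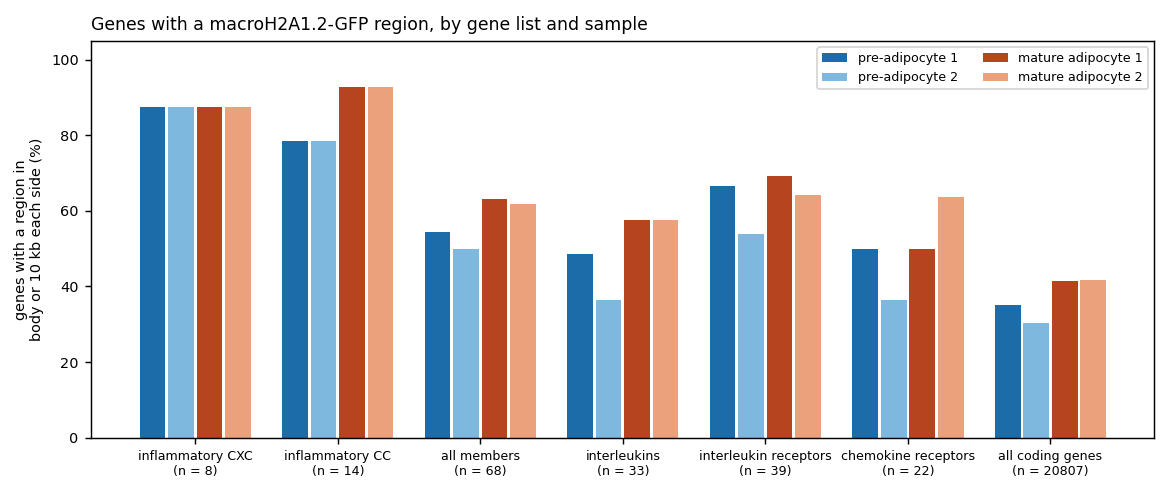
Percentage of genes (y axis) with an enriched region in the gene body or within 10 kb of it, for 7 gene lists (x axis, number of genes in parentheses), with a bar for each of the 4 samples. All members sit between 50% and 63.2%, above the bars of all coding genes at 30.3% to 41.6% in every sample, and inflammatory CXC chemokines stand at 87.5% in each sample.

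The members differed by family. Among the 8 inflammatory CXC chemokines, which draw neutrophils and activated T cells, 7 had a region in all 4 samples (Cxcl1, Cxcl2, Cxcl3, Cxcl5, Cxcl9, Cxcl10 and Cxcl15), and Cxcl16 had none. Among the 14 inflammatory CC chemokines, which draw monocytes and eosinophils, 10 had a region in all 4 samples and only Ccl5 had none in any of them. The remaining chemokines were listed as homeostatic, placing lymphocytes and other cells in resting tissue, or as dual, that is both homeostatic and inflammatory. Of these, 2 of 9 CC genes (Ccl22 and Ccl28) and 1 of 4 CXC genes (Cxcl12, the stromal factor that retains stem cells in marrow) had a region in all 4 samples. This is near the background of 21.1%. Of the 9 CC genes, 5 lie in the chromosome 4 cluster, where 45.0% to 100% of transcript stretches are not unique to the gene and only uniquely mapping reads were kept. These lists were drawn up with earlier results of the data known and the difference between them was not tested.

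Of the 33 interleukin genes 8 had a region in all 4 samples, or 24.2%, close to the background of 21.1%, beside 20 of 35 chemokine genes, or 57.1%. The 8 were Il3, Il6, Il7, Il12b, Il15, Il18, Il33 and Il34. No gene of the IL-10 family (0 of 5) or of the IL-17 family (0 of 5) had one. In the IL-1 family 2 of 4 genes had one, Il18 and Il33, while Il1a and Il1b each had a region in 1 pre-adipocyte and 1 mature sample. The IL-6 and IL-12 group had 2 of 6, the cytokines that signal through the common gamma chain had 2 of 6, and the group of beta-common and type 2 cytokines had 1 of 5, Il3. Counted sample by sample, however, interleukin genes stood above all coding genes, at 48.5%, 36.4%, 57.6% and 57.6% against 35.0%, 30.3%, 41.4% and 41.6%. All 4 samples lacked a region at 7 interleukin genes, or 21.2%, against 46.3% of all genes and 31.4% of chemokine genes. Regions covered 15.8%, 8.80%, 18.8% and 19.0% of the bases in interleukin windows, against 8.08%, 3.74%, 8.35% and 8.07% over all genes.

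Of a list of 21 genes known from adipose inflammation and the secretions of senescent cells, 15 had a region in all 4 samples, or 71.4% against 21.1% of all genes. Another 3 had none, Ccl5, Cxcl14 and Il10, or 14.3% against 46.3% of all genes. The list was drawn up with earlier results of the data known. Several of the 15 are cluster neighbours that share regions, such as Ccl2 with Ccl7 and Cxcl1 with Cxcl2, and the difference from all genes was not tested. Ccl2 and Il6, the genes most often measured as signs of inflamed fat, were both among the 15. Receptor genes of the same ligands were also counted. A region in all 4 samples was found at 7 of 22 chemokine receptor genes and at 14 of 39 interleukin receptor genes, or 31.8% and 35.9%, beside 41.2% of the members and 21.1% of all genes. In single samples, however, the shares of interleukin receptor genes with a region were above those of the members, at 66.7%, 53.8%, 69.2% and 64.1%, and chemokine receptor genes stood at 50%, 36.4%, 50% and 63.6%. Interleukin receptor genes were longer, with a median body of 30142 bp against 5169.5 bp in the members. By bases the order was the reverse. Regions covered 16.2%, 6.63%, 15.9% and 14.2% of interleukin receptor windows and 11.1%, 5.17%, 11.5% and 10.5% of chemokine receptor windows. The windows of the members were covered to 25.2%, 11.7%, 24.6% and 25.3%.

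Averaged over the 4 samples, the largest share of a window was covered at Cxcl15, a neutrophil chemokine gene of the lung (chr5:90794534-90803067, plus strand). Regions covered 90.7% and 70.1% of its window in pre-adipocytes and 85.0% and 62.4% in mature adipocytes, and the samples of both conditions overlapped. In single samples Cxcl3, Ccl3, Ccl4, Ccl12 and Ccl22 reached higher values, up to 96.4% at Ccl4 in pre-adipocyte replicate 1. Ccl2, which encodes the monocyte attractant MCP-1 (chr11:82035571-82037453, plus strand), came next, with 76.9% and 51.3% in pre-adipocytes and 80.7% and 86.0% in mature adipocytes. Both mature samples lay above both pre-adipocyte samples, by a margin of a few percentage points over replicate 1. At Ccl22, which encodes a ligand of Ccr4 (chr8:94745590-94751699, plus strand), the covered share was 95.4% and 18.4% in pre-adipocytes and 89.3% and 80.1% in mature adipocytes, and pre-adipocyte replicate 2 alone was low.

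Il33, an alarmin of the IL-1 family made by stromal cells of fat tissue (chr19:29925114-29960718, plus strand), had the most ChIP reads after Il15. The reads given for a member are those of whole regions touching its window, so they include parts outside it and regions shared with neighbouring members. The regions at Il33 held 2029 and 503 ChIP reads in pre-adipocytes and 2259 and 1531 in mature adipocytes, over 81.4%, 41.0%, 71.9% and 69.8% of the window. A single region of 47000 bp in pre-adipocyte replicate 1, chr19:29908401-29955400, was the longest at any member. Il15, which supports memory T cells and natural killer cells, had 2852 and 985 reads in pre-adipocytes and 3744 and 3694 in mature adipocytes. Its window was covered to 49.2% and 35.4% against 73.4% and 72.1%, with both mature samples higher. In Il6 the order was different, with 31.3% and 57.3% in pre-adipocytes and 38.7% and 35.0% in mature adipocytes, and the less deep pre-adipocyte sample had the highest value.

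Of the other members with many reads, Cxcl3, a neutrophil attractant, had 1895 and 605 in pre-adipocytes and 1133 and 867 in mature adipocytes. The counts of 1895 and 1133 were also those of its neighbour Cxcl15, whose window the same regions touched. Ccl12, a monocyte attractant close to Ccl2, had 1117 and 42 against 1087 and 1266, and covered shares of 94.4% and 9.28% against 80.5% and 96.3%. Ccl1, whose product acts through Ccr8, had 1455 and 261 against 946 and 1445. At Cxcl3, Ccl12 and Ccl1 the lowest read count was that of pre-adipocyte replicate 2, and the read counts of the conditions overlapped.

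Among the genes of adipose inflammation that were covered less, Il18 had shares of 37.8% and 19.1% in pre-adipocytes and 15.3% and 24.7% in mature adipocytes, which overlapped. Il34, a ligand of the macrophage receptor Csf1r, had 18.6% and 8.80% against 34.7% and 23.1%, with both mature samples higher. Cxcl5 had 74.0% and 25.4% against 12.8% and 47.9%, and the replicates of each condition lay far apart.

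At the other end, 3 members with a region in any sample were covered least. These were Il27 with a mean of 0.714%, Il4 with 1.31% and Il9 with 1.74%, each with a region in a single sample.

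The enrichment was modest at all of these genes. Over the 28 members bound in all 4 samples, the median ratio of ChIP to control reads, scaled to library size, was 1.5 and 1.81 in pre-adipocytes and 1.52 and 1.56 in mature adipocytes, and the values ran from 1.17 to 2.95. Pre-adipocyte replicate 2 had the highest ratio at 22 of the 28 and the lowest covered share at 22 of the 28. Of 333 regions counted over the 4 samples, 60 had a ratio of 2 or more. Regions at members held more control reads than regions elsewhere, 21.4 to 23.5 per kb against 18.6 to 19.4 per kb, and the part of this in the result was not tested.

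**Figure D2:**
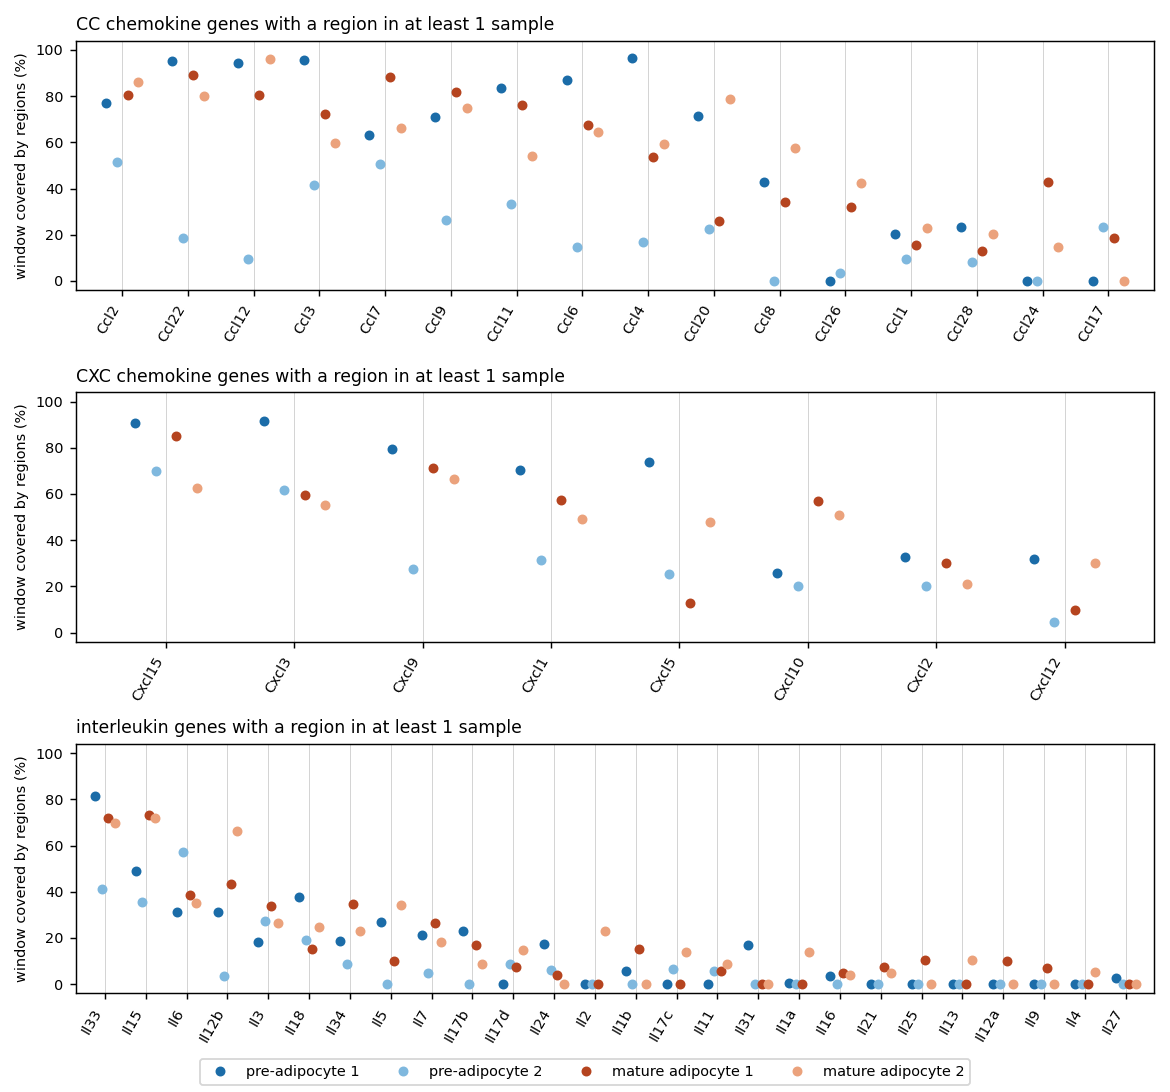
Percentage of the gene window covered by enriched regions (y axis) for the 50 members with a region in at least 1 sample (x axis), ordered within each family by the mean of the 4 samples, with a point for each sample. CC genes reach 96.4%, CXC genes 91.5% and interleukins 81.4%, and pre-adipocyte replicate 2 is the lowest point at 22 of the 28 genes bound in all samples.

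Of the 68 members, 28 lay in 6 clusters of at least 3 genes with gaps of up to 500 kb between bodies. The clusters fell into covered and uncovered ones. In 3 of them regions took up more of the span than of its flanks in all 4 samples. The flank value is the mean of the 500 kb on each side, and the sides were not compared singly. In 2 others, the Il4-Il5 and Ccl27a-Ccl21a clusters, the span was covered less than its flanks in all 4 samples. The flanks of the Ccl27a-Ccl21a cluster were themselves nearly bare, at 1% to 3.5%.

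The CXC cluster from Cxcl5 to Cxcl2 on chromosome 5 (chr5:90749360-90915938) holds the neutrophil chemokines Cxcl5, Cxcl3, Cxcl15, Cxcl1 and Cxcl2. Regions covered 67.7% and 38.8% of it in pre-adipocytes and 40.5% and 48.4% in mature adipocytes, against 28.7%, 10.4%, 19.0% and 17.5% of its flanks. The mature samples lay between the pre-adipocyte samples. The mean difference, mature minus pre, was -8.82 percentage points (exact permutation test, two-sided p = 1).

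The other covered clusters both lie on chromosome 11, which carries 17 members, 15 of them with a region in at least 1 sample. Regions were frequent on this chromosome, at 48.7%, 37.8%, 56.0% and 56.0% of all its coding genes in the 4 samples. The cluster from Ccl2 to Ccl1 (chr11:82025571-82315690) holds the monocyte and eosinophil attractants Ccl2, Ccl7, Ccl11, Ccl12 and Ccl8 together with Ccl1. It was covered to 47.9% and 21.9% in pre-adipocytes and 40.3% and 45.9% in mature adipocytes, against flanks of 14.0%, 4.54%, 16.0% and 15.7%. Ccl1 is annotated with a body of 129034 bp, and regions lay over the part of it nearer to Ccl2. The cluster from Ccl5 to Ccl4 (chr11:83515778-83674683), with Ccl9, Ccl6 and Ccl3, was covered to 47.9% and 17.4% in pre-adipocytes and 46.4% and 37.9% in mature adipocytes, against flanks of 15.7%, 8.05%, 12.7% and 12.3%. Within it Ccl5, the T cell attractant RANTES, had no region within 10 kb in any sample, the nearest lying at 12.7 to 40.5 kb. The mean differences of 8.20 and 9.50 percentage points, mature minus pre, were within the spread of the samples in both clusters (exact permutation test, two-sided p = 1 for each), and without pre-adipocyte replicate 2 they were -4.83 and -5.73.

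**Figure D3:**
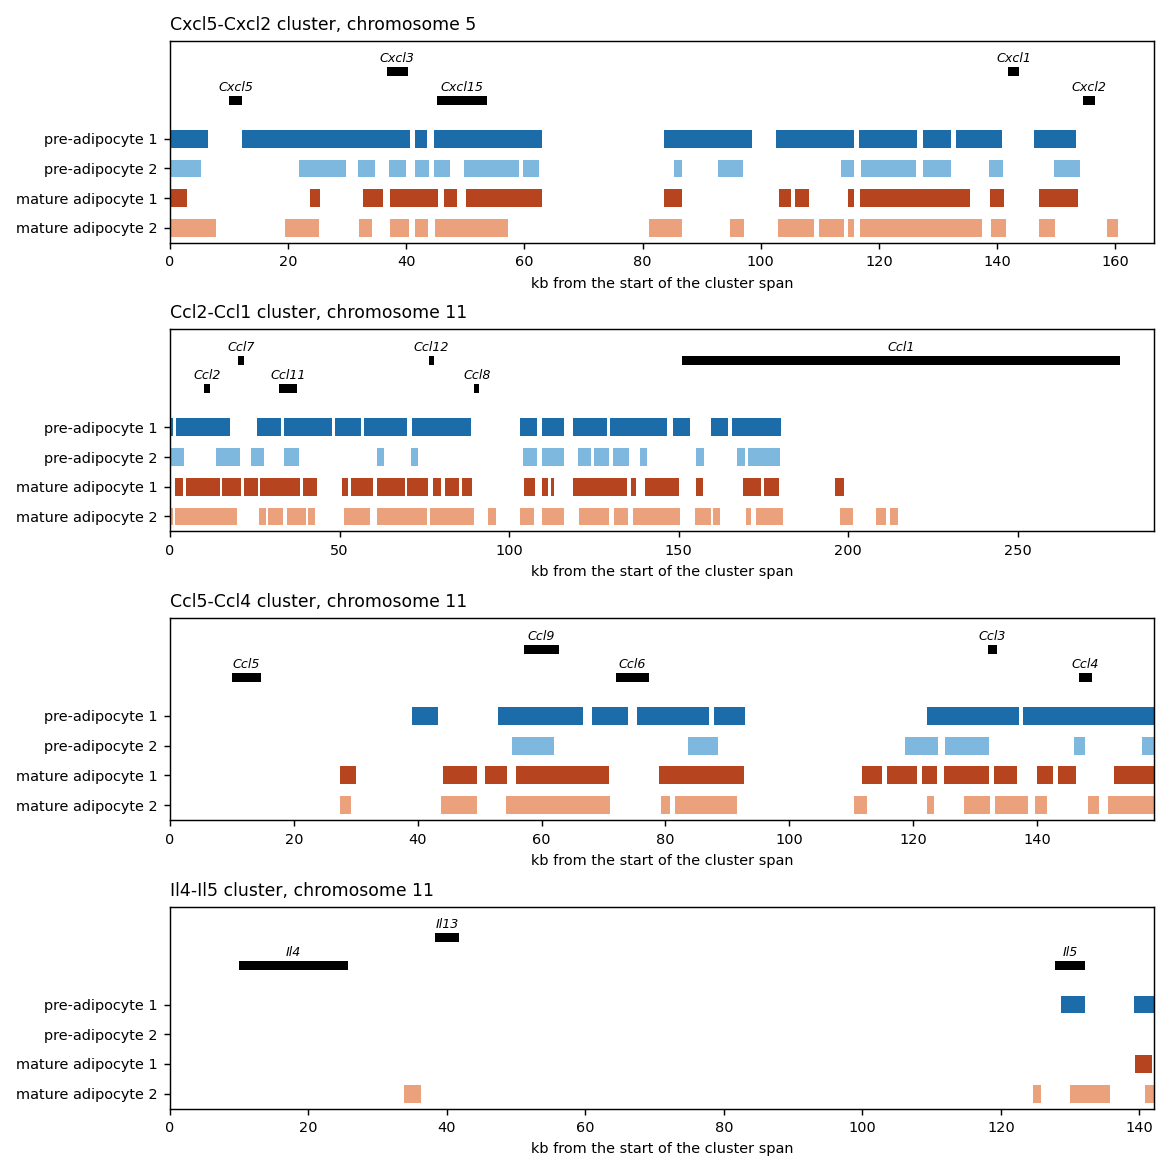
Enriched regions (colored bars, a line for each sample) and gene bodies (black bars) along 4 clusters, with the distance in kb from the start of the cluster span on the x axis. Regions of the 4 samples fall at like positions in the 3 chemokine clusters, stop short of Ccl5 and of the far part of the Ccl1 body, and are sparse between Il4 and Il5.

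The type 2 cytokine cluster from Il4 to Il5 (chr11:53592982-53735106) holds Il4, Il13 and Il5. It was covered to 4.58% and 0% in pre-adipocytes and 1.69% and 7.53% in mature adipocytes, while its flanks stood at 19.6%, 8.44%, 18.6% and 18%. The samples of both conditions overlapped (exact permutation test, two-sided p = 0.667). In the IL-10 family cluster from Il24 to Il10 on chromosome 1 the span was covered to 2.70% and 0.982% in pre-adipocytes and 0.614% and 0.982% in mature adipocytes, in flanks that were themselves bare at 0.960% to 1.74% (p = 0.667 in the same exact permutation test). The cluster from Ccl27a to Ccl21a on chromosome 4, which spans 1024.5 kb and holds the lymphoid homing chemokines Ccl27a, Ccl27b, Ccl19, Ccl21a and Ccl21b, had no region in any sample. Its flanks were covered to 1.42% and 1% in pre-adipocytes and 3.5% and 2.3% in mature adipocytes.

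**Figure D4:**
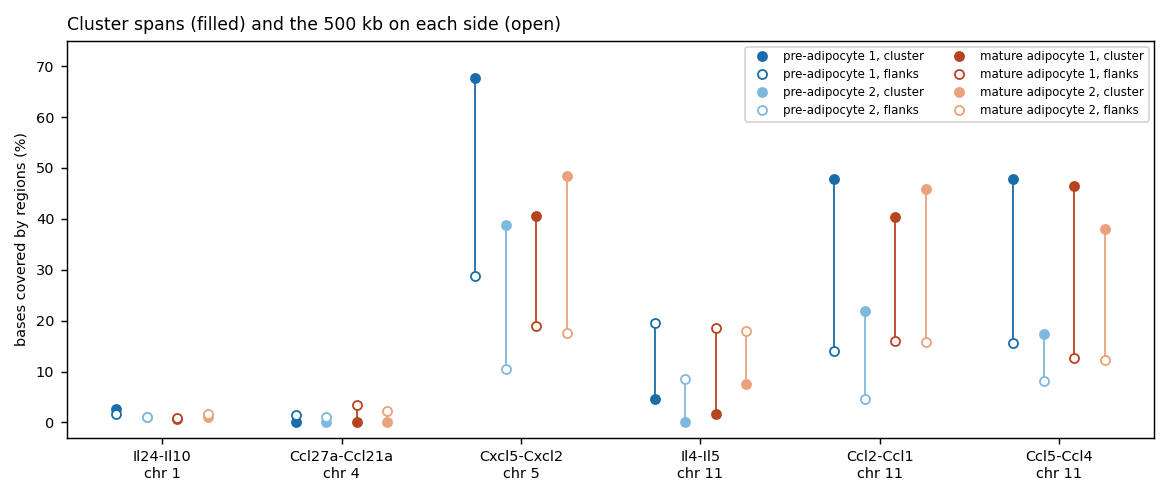
Percentage of bases covered by regions (y axis) in each of the 6 cluster spans (filled points) and in the 500 kb on each side, averaged over both sides (open points), by sample. The 3 covered chemokine clusters lie above their flanks in all samples, from 17.4% to 67.7%, and the Il4-Il5 cluster lies below its flanks of 8.44% to 19.6%.

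Several genes of the chromosome 4 cluster have near-identical copies: Ccl21a and Ccl21b share stretches with each other, Ccl27a and Ccl27b likewise, and Ccl19 with pseudogenes and predicted genes. Of all 50-base stretches in their annotated transcripts, which is the read length, 100% at Ccl21b, 98.1% at Ccl27b, 71.6% at Ccl21a, 52.0% at Ccl19 and 45.0% at Ccl27a also occurred in transcripts of other genes. These were the highest 5 values of the 68 members. Il22, another member with no region, followed with 41.0%, shared with its copy Iltifb. The authors kept uniquely mapping reads only, so reads from such copies were left out before regions were called, and how much of the absence of regions this accounts for was not tested. The other 12 members with no region shared less than 20% of their stretches, among them Il10, Ccl5, Cxcl13, the follicle chemokine, and Cxcl14.

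Transcription starts were inside a region less often than windows were touched. The annotated start lay in a region at 17 and 5 members in pre-adipocytes and at 12 and 12 in mature adipocytes, or 25%, 7.35%, 17.6% and 17.6%, against 6.14%, 2.30%, 5.78% and 5.43% of all genes. The less deep pre-adipocyte sample was the lowest in both sets. At 3 members, Cxcl15, Cxcl9 and Il33, the start lay in a region in all 4 samples, where 0.639% of all genes did so. At 4 more, Ccl2, Ccl3, Ccl9 and Ccl11, it did so in 3 samples, with pre-adipocyte replicate 2 missing from each, and at Ccl4 it did so in both pre-adipocyte samples and in neither mature sample. A region still overlapped the Ccl4 body in mature adipocyte replicate 2 and lay 584 bp from it in mature adipocyte replicate 1. Shares of all genes were not computed for these patterns.

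Promoter sequences of 49 of the 68 members were given by RefSeq (build GRCm38.p6), from 250 bases before to 50 bases after the start, and in 44 the start was within 1 kb of that of GENCODE. The 6 shown here are the promoters touched by a region in all 4 samples (Cxcl15, Cxcl9 and Il33), those of Cxcl1 and Cxcl2, which lie in the same covered cluster as Cxcl15 but were touched in no sample, and that of Cxcl14, with no region within its window. All are written 5′ to 3′ on the gene's strand, and capitals mark matches on either strand to the letters of an NF-kB site (GGG, any pair of bases, then TTTCC), or on the gene's strand to TATAAA. Relative to the start, TATAAA began at -27 in Cxcl15 but at -195 in Cxcl9 and -203 in Il33. None of the 6 held matches to both, but they were picked in part by these letters. Among the member promoters not shown, those of Cxcl3 and Ccl9 held both. These were touched by a region in 1 and 3 samples.
Cxcl15 (chr5:90794284-90794583, plus strand): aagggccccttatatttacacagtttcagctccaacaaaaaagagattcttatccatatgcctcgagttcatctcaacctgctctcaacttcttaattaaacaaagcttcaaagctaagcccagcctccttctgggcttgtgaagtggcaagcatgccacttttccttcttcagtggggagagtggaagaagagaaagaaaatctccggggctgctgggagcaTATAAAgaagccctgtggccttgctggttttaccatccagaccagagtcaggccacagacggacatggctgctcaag
Cxcl9 (chr5:92328030-92328329, minus strand): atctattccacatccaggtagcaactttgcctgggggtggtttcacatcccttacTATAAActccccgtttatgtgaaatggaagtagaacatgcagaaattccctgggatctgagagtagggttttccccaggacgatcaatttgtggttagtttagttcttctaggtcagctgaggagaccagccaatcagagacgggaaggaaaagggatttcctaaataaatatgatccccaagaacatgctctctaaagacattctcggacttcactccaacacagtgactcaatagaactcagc
Il33 (chr19:29924863-29925162, plus strand): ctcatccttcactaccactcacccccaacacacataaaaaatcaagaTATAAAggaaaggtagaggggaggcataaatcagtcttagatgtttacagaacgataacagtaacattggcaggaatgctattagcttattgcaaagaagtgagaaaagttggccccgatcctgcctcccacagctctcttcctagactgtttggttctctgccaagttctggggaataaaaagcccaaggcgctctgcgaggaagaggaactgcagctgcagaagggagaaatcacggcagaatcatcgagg
Cxcl1 (chr5:90890995-90891294, plus strand): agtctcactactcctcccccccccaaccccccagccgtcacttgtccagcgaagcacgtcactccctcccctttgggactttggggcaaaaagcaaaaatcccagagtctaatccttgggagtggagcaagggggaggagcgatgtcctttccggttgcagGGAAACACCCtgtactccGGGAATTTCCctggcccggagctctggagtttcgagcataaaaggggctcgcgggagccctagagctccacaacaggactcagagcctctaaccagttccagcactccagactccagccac
Cxcl2 (chr5:90903649-90903948, plus strand): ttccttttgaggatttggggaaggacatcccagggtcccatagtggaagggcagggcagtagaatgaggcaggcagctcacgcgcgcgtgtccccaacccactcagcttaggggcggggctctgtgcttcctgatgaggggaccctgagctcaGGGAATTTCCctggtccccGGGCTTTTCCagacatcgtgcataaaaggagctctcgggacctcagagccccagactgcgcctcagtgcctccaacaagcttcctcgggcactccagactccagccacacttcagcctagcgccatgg
Cxcl14 (chr13:56296502-56296801, minus strand): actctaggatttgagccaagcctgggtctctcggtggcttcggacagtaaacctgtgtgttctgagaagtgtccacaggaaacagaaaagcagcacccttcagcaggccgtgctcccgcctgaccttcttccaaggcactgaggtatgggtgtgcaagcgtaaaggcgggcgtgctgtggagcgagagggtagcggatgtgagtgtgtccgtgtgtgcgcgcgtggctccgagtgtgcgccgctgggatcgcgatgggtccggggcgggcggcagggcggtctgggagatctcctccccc

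The Cxcl15 and Il33 promoters lay wholly inside a region in all 4 samples, and the Cxcl9 promoter did so in 3 samples and over 171 of its 300 bases in pre-adipocyte replicate 2. Cxcl9 encodes a T cell attractant induced by interferon gamma. The region over its start was chr5:92314801-92328400 in pre-adipocyte replicate 1, with 562 ChIP reads and a ratio of 2.11, and the ratios over its start were 2.05 in pre-adipocyte replicate 2 and 1.71 and 1.73 in mature adipocytes. At the start of Il33 the ratios were 1.39 and 1.86 in pre-adipocytes and 1.74 and 1.53 in mature adipocytes, and at that of Cxcl15 they were 1.38 and 1.58, then 1.41 and 1.38.

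The NF-kB letters were found on either strand in 7 of the 44 member promoters, or 15.9%, and in 1.66% of 31365 autosomal RefSeq promoters. The 7 were Ccl20, Il6, Il9, Cxcl1, Cxcl2, Cxcl3 and Ccl9. TATAAA was found on either strand in 36.4% of member promoters and in 13.6% of all promoters. Of the 9 member promoters touched by a region in 2 or more samples, 2 held the NF-kB letters, and of the 27 touched in none, 3 did. Both groups are small, and a match to these letters is a description of the sequence. Of the 14 members with the annotated start in a region in 2 or more samples, Ccl2, Ccl4, Ccl7, Ccl11, Il15 and Il34 had no RefSeq promoter. They are in neither group. Member promoters held few CpG dinucleotides, with a median of 4 against 7 over all promoters. The median was 3 in the 9 promoters touched in 2 or more samples and 5 in the 27 touched in none, and over all promoters the same medians were 4 and 9. The Ccl25 promoter held the most, 52, followed by those of Cxcl14 with 22 and Cxcl12 with 20.

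The comparison of mature adipocytes with pre-adipocytes asked whether binding at these genes changed with differentiation. Few members gained or lost a region, and the differences moved with the less deep sample. A region was present in both mature samples and in neither pre-adipocyte sample at 2 members, Il21 and Ccl24, or 2.94% against the background of 4.86% of all genes. Il21, a T cell cytokine, had 76 and 56 ChIP reads in mature adipocytes, and Ccl24, the eosinophil attractant eotaxin-2, had 351 and 108. No member had the reverse pattern, where the background was 0.913%. The count of 2 was 6 without pre-adipocyte replicate 1 and 5 without any one of the other samples, and the count of 0 was 2 without pre-adipocyte replicate 2 (Il27 and Il31) and 1 without mature adipocyte replicate 1 (Il24). Shares of all genes were not computed with a sample left out, so these counts cannot be set against a background.

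The number of members with a region was higher in mature adipocytes by 7 on average, more than the pooled SD of 1.58 between replicates, and it was higher by 5.5 without pre-adipocyte replicate 2. All genes moved the same way. The number of regions called over the genome also differed by condition, with 36468 and 38546 in pre-adipocytes and 59375 and 61196 in mature adipocytes. The covered share of member windows differed by 6.5 percentage points, mature minus pre, which was less than the SD of 6.75 between replicates, and by -0.235 without pre-adipocyte replicate 2. The number of starts in a region differed by 1, with an SD of 6, and by -5 without that sample.

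Gene by gene, the covered share was higher in both mature samples than in both pre-adipocyte samples at 11 members, or 16.2%, against 14.6% of all genes. These were Il12b, Il15, Il16, Il21, Il34, Ccl2, Ccl7, Ccl9, Ccl24, Ccl26 and Cxcl10. It was lower in both at 2 members, Il24 and Cxcl3, or 2.94%, against 3.51% of all genes. With pre-adipocyte replicate 2 left out, 15 members, or 22.1%, were higher in both mature samples than in replicate 1, against 16.2% of all genes. Another 19 members, or 27.9%, were lower in both, against 18.1% of all genes. At Cxcl10, an interferon-induced T cell attractant, the covered share was 25.9% and 20.2% in pre-adipocytes and 57.0% and 50.7% in mature adipocytes, with no overlap. At Il12b, the shared subunit of IL-12 and IL-23, it was 31.2% and 3.53% against 43.6% and 66.3%, and at Cxcl3 it was 91.5% and 61.7% against 59.6% and 55.3%.

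Tag density, the log2 of ChIP reads per 100 bp of a region, had a median over member regions of 1.84 and 1.07 in pre-adipocytes and 1.98 and 1.95 in mature adipocytes. The low value belonged to the less deep sample. The difference of 0.51, mature minus pre, became -0.07 once the reads were divided by the library size relative to the control. The medians on that scale were 1.58, 1.93, 1.68 and 1.68, and those of all autosomal regions were 1.5, 1.89, 1.63 and 1.66.

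Reads were then compared region by region. Overlapping regions of the 4 samples were merged, and for the 12857 of them with a call in every sample the ChIP counts were fitted with the quasi-likelihood model of edgeR, relative to the length called in each sample. Of these, 32 lay at members and touched 31 of them. A merged region was counted at a member when any part of it overlapped the window, so it could reach past the window. At Il1a, Il1b, Il5 and Ccl8 the merged region was called in all 4 samples although the window itself held a region in fewer. None of the 32 passed an adjusted p of 0.05, and 0.0856% of all tested regions did so. At an unadjusted p under 0.05 there were 8, or 25% against 9.15% of all tested regions, of which 2 had higher and 6 had lower read density in mature adipocytes. Over all regions 605 were higher and 571 lower at that level. DESeq2 gave 3 of the 32 at an unadjusted p under 0.05, but an adjusted p for only 2 of them, neither of which passed, so it gives no call for the regions named here. The median log2 fold change of the 32 was -0.02, beside -0.00066 over all regions.

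The smallest p belonged to a region upstream of Ccl28, a mucosal chemokine gene, at chr13:119608401-119619600. It held 1023 and 474 ChIP reads in pre-adipocytes and 1181 and 753 in mature adipocytes, at tag densities of 3.19 and 2.33 against 3.71 and 3.60, which did not overlap. The log2 fold change was 0.33 (SE 0.0715, edgeR adjusted p = 0.0506), and -0.40 when reads were not set against the called length. In the settings of edgeR tried for this region the adjusted p ranged from 0.00751 to 0.806, with 0.0138 and 0.00751 when pre-adipocyte replicate 1 or 2 was left out and 0.806 and 0.397 when mature adipocyte replicate 1 or 2 was. Control reads were also dense in it, 734 and 696 in the pre-adipocyte intervals, and its ratio to the control was 1.16 and 1.24 there, the lowest of any member region in each of these samples.

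The next regions with higher density in mature adipocytes were at Il18, the interleukin cleaved by the inflammasome (log2 fold change 0.37, SE 0.146, edgeR adjusted p = 0.420), and at Il3, a growth factor for blood cells (0.27, SE 0.145, edgeR adjusted p = 0.601). Those with lower density were at Cxcl9 (-0.29, SE 0.0859, edgeR adjusted p = 0.204), Il1a (-0.27, SE 0.0899, edgeR adjusted p = 0.295) and Il12b (-0.30, SE 0.123, edgeR adjusted p = 0.440). The Il1a region (chr2:129315801-129345600) reached past the window of the gene, which itself held a region in only 1 sample of each condition. Without the called length as an offset the direction turned at Il18 (-0.53), Il12b (1.32) and Cxcl9 (0.0419). The Cxcl9 region held 674 and 168 ChIP reads in pre-adipocytes and 678 and 574 in mature adipocytes. Its tag density was 2.02 and 1.18 against 1.91 and 1.86, so the mature samples lay between the pre-adipocyte samples before scaling. In the clusters the estimates ran from -0.28 at a region of Cxcl5 (unadjusted p = 0.0229, edgeR adjusted p = 0.451) to 0.05 at that shared by Ccl2, Ccl7 and Ccl11, with -0.15 at the region shared by Ccl9 and Ccl6, -0.10 at that of Cxcl1 and Cxcl2, and 0.02 at that of Ccl3 and Ccl4.

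**Figure D5:**
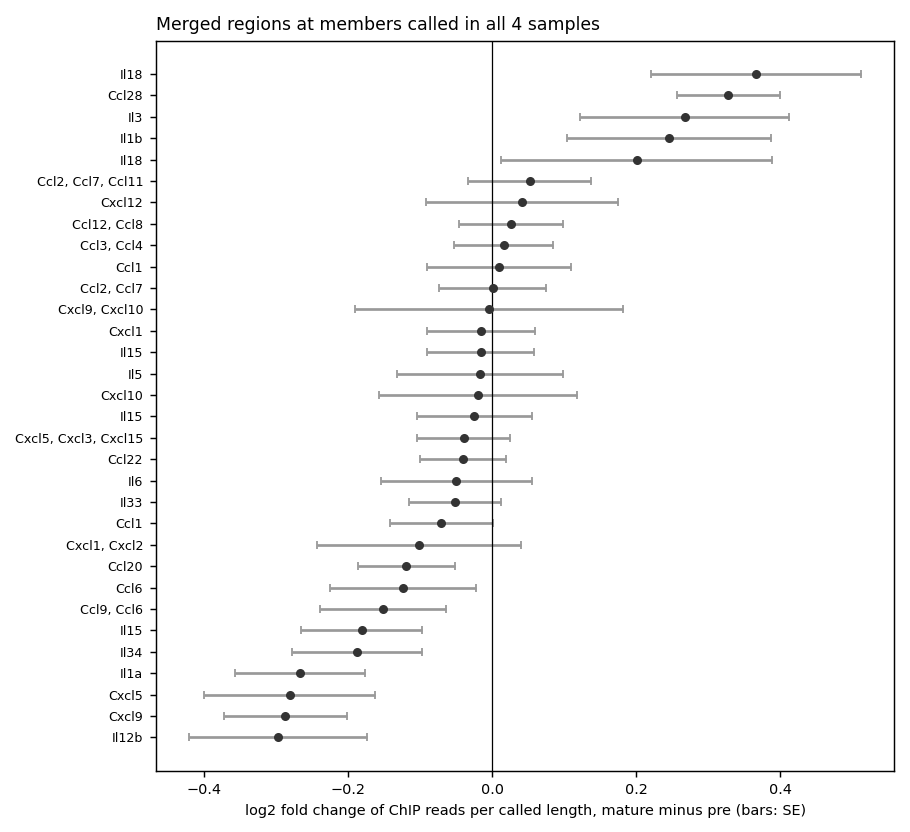
Log2 fold change of ChIP reads per called length, mature minus pre, with its SE (x axis), for the 32 merged regions at members called in all 4 samples (y axis, named by the members they touch, so a gene can appear more than once). Estimates run from -0.30 to 0.37, 11 above and 21 below 0, and none passed an adjusted p of 0.05.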

How the data were processed

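ChIP-Seq regions of 4 anti-GFP samples, 2 of pre-adipocytes and 2 of mature adipocytes, were analysed, with 1 no-antibody library as the shared control. The authors aligned 50-base single reads to mm10 with Bowtie 1.1.2, keeping unique matches with at most 2 mismatches. Duplicate reads were taken out with Picard, and SICER 1.1 was run on each sample; bcl2fastq 2.16 and bedtools are named in the submitters' processing notes. The deposited columns hold raw counts of ChIP and control reads per region, the p-value and FDR of the authors' caller, and a fold enrichment, which is a ratio of the ChIP to the control count corrected for library size. Total library sizes are not given in the sources used here; relative sizes were taken from the deposited fold. The region lists show no reads outside called regions, so a gene without a region was not shown to lack binding.

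Gene bodies were taken from GENCODE M21 on the same build. Regions in 200 bp steps are printed 1-based. Members and lists were chosen with earlier results of these data known. Genes named with values were those in clusters, those with regions in all samples or in 1 condition only, the 3 smallest p in each direction, the adipose list, the extremes of covered share and those with starts in regions in both samples of a condition. Promoter motifs, CpG counts, shared 50-base stretches and the counts of genes whose samples did not overlap were added after the data were seen. Cluster coverage was compared by exact permutation tests. ChIP counts of merged regions (62927, of which 12857 were called in all samples) were tested with edgeR 4.0.16 (TMM, Benjamini-Hochberg over all tested regions), with an offset of log called length and library scaling from counts per called length; DESeq2 1.42.0 was an alternative. Scripts were tested on simulated data. R 4.3.3, Python 3.11.15, pandas 2.3.3 and numpy 2.4.6 were used.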

Additional observations from a re-analysis of the deposited data

How the results depend on the processing

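With 2 samples per condition and 1 less deep library, no difference between conditions could pass an exact test. Each alternative was labelled against the main result by direction, by size or by a threshold, depending on the result. By these rules 124 stayed the same, 13 turned direction, 5 newly passed and 22 moved. Among the 124 are the alternatives of the Ccl27a-Ccl21a span, which was 0 throughout. They also include the DESeq2 estimates of the named regions, which had no adjusted p to set against a threshold. With a fold enrichment of at least 2, the mature minus pre difference in starts was -1, that of the Il24-Il10 span 0.798 percentage points, members bound only in mature samples 4 and members bound in all samples 3. In the gene body only these last counts were 4 and 14. The matching counts over all genes were not computed in these settings. With 25 kb on each side the number of members with a region differed by 4.5. Dividing tag density by library size gave a difference of -0.0705.

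Leaving out 1 sample at a time gave a difference in members with a region of 5.5 to 8.5, in covered share of -0.235 to 13.2 percentage points, in starts of -5 to 7, in tag density of 0.13 to 0.90, members bound only in mature samples 5 to 6, only in pre-adipocytes 0 to 2, and in all 28 to 32. Shares of all genes bound in only 1 condition or in all samples were not computed with a sample left out. The cluster differences ran from -23.3 to 5.64 percentage points for Cxcl5-Cxcl2, -0.600 to 5.24 for Il4-Il5, -4.83 to 21.2 for Ccl2-Ccl1 and -5.73 to 24.7 for Ccl5-Ccl4. Without pre-adipocyte replicate 2, a choice made after seeing the data, 19 members in place of 2 were less covered in both mature samples. These were 27.9% of the members, against 18.1% of all genes.

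Merged regions past the adjusted p numbered 11 with edgeR, 3 with no length offset, 27 with at least 50 reads in every sample, 1 with a fold enrichment of at least 2 in every sample and 6 with DESeq2 (643 regions with an adjusted p, 2 of them at members), and from 1 to 224 when 1 sample was left out, with the lone sample assumed to vary as the pair did. With the replicate number as a block there were 27, but same-numbered samples did not deviate together (correlation 0.00775). The Ccl28 region passed with edgeR's RLE scaling (adjusted p = 0.0488), at least 50 reads (0.0162), the block (0.0235), and without pre-adipocyte replicate 1 (0.0138) or 2 (0.00751). Without the length offset the log2 fold change was -0.40 at Ccl28, -0.53 at Il18, 1.32 at Il12b and 0.0419 at Cxcl9. The cause was not tested.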
